A study of Mus musculus with 6 samples.

Results

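The intracellular core of the focal adhesion was examined in RNA bound with Staufen2 in podocytes. It was taken as 10 genes listed by name: the talins Tln1 and Tln2, the kindlin Fermt2, the integrin-linked kinase complex of Ilk, Parva and Lims1, vinculin (Vcl), paxillin (Pxn), focal adhesion kinase (Ptk2) and zyxin (Zyx). The annotation used here lists a probe set with a single gene symbol for 9 of the 10 genes, and Ptk2 was not analysed here. These 9 genes stand among 19938 genes tested on the array, and each is represented by 1 probe set. Measurements came from 3 arrays of RNA co-precipitated with an antibody against Staufen2 and 3 arrays of input RNA. All 6 samples came from an immortalized mouse podocyte line after differentiation. The line proliferates at a low temperature with interferon gamma and differentiates at body temperature without it. Cytoplasmic lysate was the source of the pulldown, and 100 ng of RNA was labelled for each array. Equal mass was therefore compared, and a difference describes what share of the RNA a transcript made up, not how much RNA was recovered. Data from a control antibody were not analysed here. The labels leave unsaid whether replicates are separate cultures, and p-values then cover only the spread among these 6 samples, which could be technical.

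Focal adhesions anchor the actin cytoskeleton to the extracellular matrix through integrins. Talin and kindlin bind integrin tails and bring integrins into their active state, talin also binds actin, and vinculin strengthens the link between talin and actin under load. Integrin-linked kinase, PINCH (Lims1) and parvin (Parva) form a stable complex that connects integrins to actin, while paxillin and focal adhesion kinase assemble signalling proteins and zyxin gathers at actin under tension. In podocytes these proteins hold the foot processes to the glomerular basement membrane, and loss of talin 1 or of integrin-linked kinase from podocytes causes proteinuria in mice. Staufen2 binds double-stranded stretches of RNA and takes part in mRNA transport in neurons.

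The mRNAs of the talins were much higher in the pulldown than in the input, and the rest of the core lay close to the input. Tln2 was 2.86-fold and Tln1 1.72-fold higher, while Lims1, Fermt2, Vcl and Parva were 1.12-fold to 1.18-fold higher. Pxn, Zyx and Ilk did not pass the test. In all, 6 of the 9 measured genes rose and none fell (limma's moderated test, Benjamini-Hochberg adjusted p under 0.05 over all genes). Of all genes tested, 48.7% were called, 31.3% as higher and 17.3% as lower. Among genes whose input level was above the median of all probe sets, as it was for all 9, 45.6% were higher and 27.3% lower. Taken as pulldown minus input, the log2 difference had a median of 0.16 over the 9 genes, 0.04 over all genes and 0.08 over genes above the median level.

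**Figure D1:**
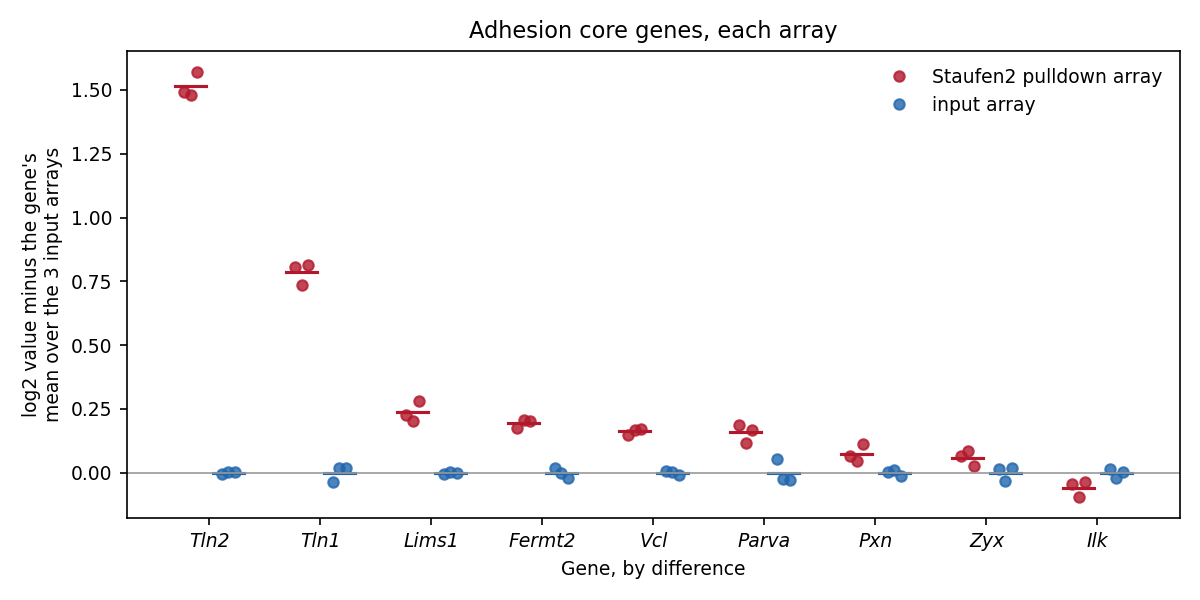
Log2 value of each measured adhesion core gene on each array, minus that gene's mean over the 3 input arrays (vertical axis), with genes ordered along the horizontal axis by their difference. Points are single arrays, pulldown (red) left of input (blue), and bars are group means. The talins stand apart, at 1.51 and 0.79, and the other 7 genes lie between -0.06 and 0.24.

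Before the genes are taken in turn, the arrays and cells are described. Array medians were 6.53 to 6.54 on the log2 scale, and correlations over all probe sets were at least 0.998 within a group and at most 0.983 between groups. Of 10 measured podocyte markers, 7 had an input level above the median of all probe sets (6.54), among them Wt1, Synpo and Cd2ap, and Nphs1, Podxl and Tcf21 did not. Of 6 mesangial and smooth muscle markers, 4 were above that median in the input. Of these Myh11, Gata3 and Pdgfrb rose, by 1.44, 0.82 and 0.32, and Acta2 did not pass, at 13.57 in the pulldown and 13.57 in the input. Of 6 tubular markers, 3 were above the median in the input and 3 rose, while 4 of 6 endothelial and 4 of 5 immune markers lay below it. Of the podocyte markers 7 of 10 rose, among them Vegfa by 0.97, and none fell. Of the endothelial markers 3 of 6 rose. No immune marker rose, and Cd14 fell by 0.48. Over all genes 31.3% were called higher, and over genes above the median level 45.6%. The summed log2 level of the podocyte list was 94.6 to 94.8 in the pulldown and 91.4 to 91.7 in the input, and that of the 6 mesangial markers 58.4 to 58.9 in the pulldown and 55.8 to 56.0 in the input. The 6 tubular markers summed to 41.6 to 41.7 in the pulldown and 40.6 to 40.8 in the input. The share of these lists in the differences below was not tested. Pulldown and input are of the same cell line, and in bulk RNA these levels do not give numbers of cells.

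Talin 1 and talin 2 are large paralogs of the same design, with a head that binds integrin and a rod that binds vinculin and actin. Tln2 (probe set 10594679) had log2 values of 9.35, 9.34 and 9.43 in the pulldown arrays, against 7.86, 7.86 and 7.87 in the input arrays. The difference of 1.51 ± 0.032 (moderated SE, n = 3 arrays per group; limma adjusted p = 1.92e-07) was larger than that of 99.9% of the genes tested. Tln1 (probe set 10512514), the talin that most tissues use, had 12.35, 12.28 and 12.36 in the pulldown, against 11.51, 11.56 and 11.56 in the input. Its difference of 0.79 ± 0.034 (limma adjusted p = 1.08e-06) exceeded that of 95.8% of genes. In either gene every pulldown array lay above every input array, and the gap was many times the spread within a group.

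The measured difference of Tln2 was larger than that of Tln1. The log2 value of Tln2 minus that of Tln1, taken within each array, was -3.00, -2.94 and -2.93 in the pulldown, against -3.65, -3.70 and -3.70 in the input. These offsets depend on the probes and say nothing about which talin is more abundant. Their shift of 0.73 between groups is the gap between the 2 differences as measured. The ranges did not overlap. The shift was 19.3 times the larger SD within a group. The exact permutation test gave p = 0.10 (2-sided), the smallest value that 3 against 3 arrays allow. It could therefore not pass 0.05, and the talins are not called unlike by it. The shift was 0.72 to 0.75 when each array was left out, and 0.73 after cyclic loess. Tln2 was the dimmest of the 9 genes in the input, brighter than 62.3% of probe sets, against 93.5% for Tln1. Difference and input level had a Spearman correlation of -0.43 over the 9 genes and -0.08 over 11525 coding genes above the median level. Whether signal level bears on the shift was not tested.

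Kindlin-2, encoded by Fermt2, is the integrin activator that works beside talin in most adherent cells. Fermt2 (probe set 10419223) had 12.71, 12.74 and 12.74 in the pulldown, against 12.56, 12.54 and 12.52 in the input. All pulldown arrays were higher, by 0.19 ± 0.027 (limma adjusted p = 0.000564), which is 1.14-fold. The related kindlins Fermt3, of blood cells, and Fermt1, of epithelia, had input levels of 6.16 and 5.42, below the median of all probe sets, and did not pass (0.07 each, limma adjusted p = 0.144 and 0.225). At such levels signal can be background, and the test could show little about these relatives.

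Among the mRNAs of the complex of integrin-linked kinase, PINCH and parvin, those of Lims1 and Parva were called higher and that of Ilk was not. Lims1 (probe set 10363265), the LIM-domain adaptor PINCH1, had 11.93, 11.91 and 11.98 in the pulldown, against 11.70, 11.71 and 11.70 in the input, a difference of 0.24 ± 0.030 (limma adjusted p = 0.000319). Parva (probe set 10556426), the actin-binding alpha-parvin, had 12.43, 12.35 and 12.41 in the pulldown, against 12.29, 12.21 and 12.21 in the input. Parva thus rose by 0.16 ± 0.036 (limma adjusted p = 0.00735), with the smallest gap between groups of the genes called, since its highest input array lay 0.06 below its lowest pulldown array. Ilk (probe set 10556005), the pseudokinase at the centre of the complex, had 12.49, 12.44 and 12.50 in the pulldown, against 12.55, 12.52 and 12.54 in the input. All 3 pulldown arrays of Ilk were below the input arrays, but the difference of -0.06 ± 0.029 did not pass (limma adjusted p = 0.144), with a 95% confidence interval of -0.13 to 0.01.

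Within each array the partners could be set against each other. Lims1 minus Ilk shifted by 0.30 between pulldown and input, Parva minus Ilk by 0.22 and Lims1 minus Parva by 0.08. In none of these pairs did the ranges of both groups overlap, and the exact permutation p was 0.10 for each. Rsu1, the Ras suppressor that binds PINCH1 and completes this complex, fell to 12.60 ± 0.028 in the pulldown, against 12.92 ± 0.016 in the input (mean ± SD, n = 3), a log2 difference of -0.32 ± 0.028 (limma adjusted p = 4.01e-05). Rsu1 minus Ilk shifted by -0.26, again without overlap (exact p = 0.10). The mRNAs of a single protein complex therefore ranged in log2 difference from 0.24 (Lims1) to -0.32 (Rsu1).

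The second PINCH gene went the other way from the first. Lims2, which encodes PINCH2, had 11.14, 11.04 and 11.10 in the pulldown, against 11.30, 11.26 and 11.39 in the input, and fell by 0.23 on the log2 scale (SE 0.044, limma adjusted p = 0.00345). Lims1 minus Lims2 shifted by 0.46, with no overlap of the ranges (exact p = 0.10). The other parvins, Parvb (5.97 in the input) and Parvg (5.81), lay below the median of all probe sets and did not pass (limma adjusted p = 0.267 and 0.0744). The pairs of this complex were chosen after their values were seen, and over all 13 pairs compared here no exact p adjusted by Benjamini-Hochberg was under 0.13.

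**Figure D2:**
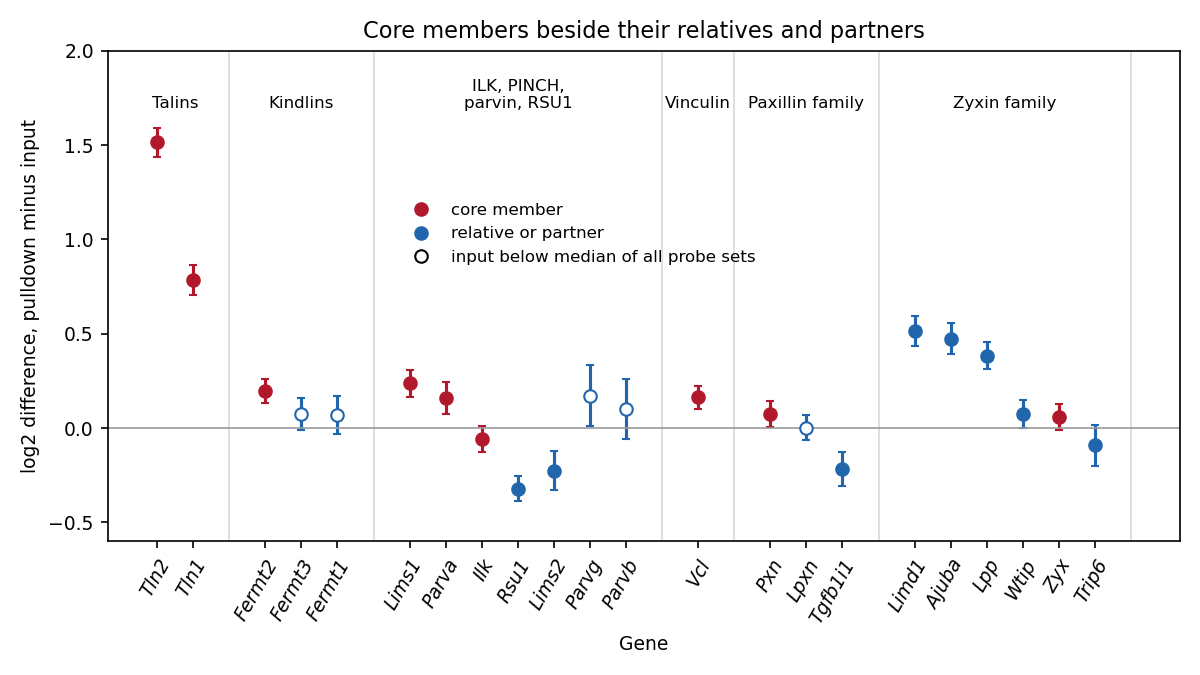
Log2 difference, pulldown minus input (vertical axis), with its 95% confidence interval, of the core members (red) and of their relatives and partners (blue), grouped by family along the horizontal axis. Open symbols mark genes whose input level was below the median of all probe sets. Lims1 (0.24) and Lims2 (-0.23) lie on opposite sides of 0. Zyx (0.06) lies below its relatives Limd1, Ajuba and Lpp (0.51, 0.47 and 0.38), close to Wtip (0.08) and above Trip6 (-0.09).

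Vinculin, encoded by Vcl, binds talin and actin. Vcl (probe set 10413059) had 12.97, 12.99 and 12.99 in the pulldown, against 12.83, 12.82 and 12.81 in the input. The groups were well separated, with SDs of 0.012 and 0.0078, yet the difference was 0.16 ± 0.025, or 1.12-fold (limma adjusted p = 0.00107). This partner of the talin rod thus differed from its input level by less than either talin did.

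Paxillin, the adaptor that focal adhesion kinase phosphorylates, had 11.34, 11.32 and 11.38 in the pulldown, against 11.27, 11.28 and 11.26 in the input (Pxn, probe set 10524703). The groups did not overlap, but the difference of 0.07 ± 0.029 did not pass (limma adjusted p = 0.0729), with a 95% confidence interval of 0.01 to 0.14. Among its relatives, Tgfb1i1, which encodes Hic-5, fell to 11.80 ± 0.066 in the pulldown, against 12.01 ± 0.016 in the input (limma adjusted p = 0.00213). Leupaxin, Lpxn, lay below the median of all probe sets. Ptk2b, the paralog of Ptk2, which was not analysed here, rose by 0.57 ± 0.047 (limma adjusted p = 2.75e-05), at 10.67 in the pulldown and 10.10 in the input.

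Zyxin, a LIM protein of mature adhesions and stress fibres, had 12.34, 12.36 and 12.30 in the pulldown, against 12.29, 12.24 and 12.29 in the input (Zyx, probe set 10537770). The difference of 0.06 ± 0.030 did not pass (limma adjusted p = 0.158). Its 95% confidence interval was -0.01 to 0.13. Its family of LIM proteins was split: Limd1, Ajuba and Lpp rose by 0.51 ± 0.035, 0.47 ± 0.035 and 0.38 ± 0.030 (limma adjusted p of 9.18e-06, 1.6e-05 and 2e-05). Wtip and Trip6 did not pass, at 0.08 and -0.09.

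All 9 genes had pulldown and input values that did not overlap, which was so for 55.9% of all genes and 78.3% of genes above the median level. In the order of differences, Tln2 stood above Tln1 and Tln1 above Lims1 without overlap of the within-array values. The neighbours Lims1 and Fermt2, Vcl and Parva, and Pxn and Zyx overlapped, so their order was not resolved (exact p of 0.30, 0.90 and 0.70). Fermt2 over Vcl, Parva over Pxn and Zyx over Ilk did not overlap, with shifts of 0.03, 0.08 and 0.12. Every neighbouring pair without overlap had an exact p of 0.10, the smallest possible, so the test passed 0.05 for no pair.

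The size of the smaller differences depended on how the arrays were scaled. Cyclic loess lowered the 9 differences by 0.08 to 0.10, although the median over all genes moved only to 0.02. Tln2 and Tln1 then stood at 1.42 and 0.69, and Lims1, Fermt2 and Vcl were still called, at 0.14, 0.11 and 0.08 (limma adjusted p = 0.00493, 0.0138 and 0.043). Parva no longer passed (0.06, limma adjusted p = 0.175), Pxn and Zyx changed sign to -0.03 each without passing, and Ilk was called lower at -0.15 (limma adjusted p = 0.00307). Under that scaling 5 of the 9 were higher and 1 lower, beside 25.7% and 22.9% of all genes. Centring on the brightest probe sets also called Ilk lower, at -0.10 (limma adjusted p = 0.0231).

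**Figure D3:**
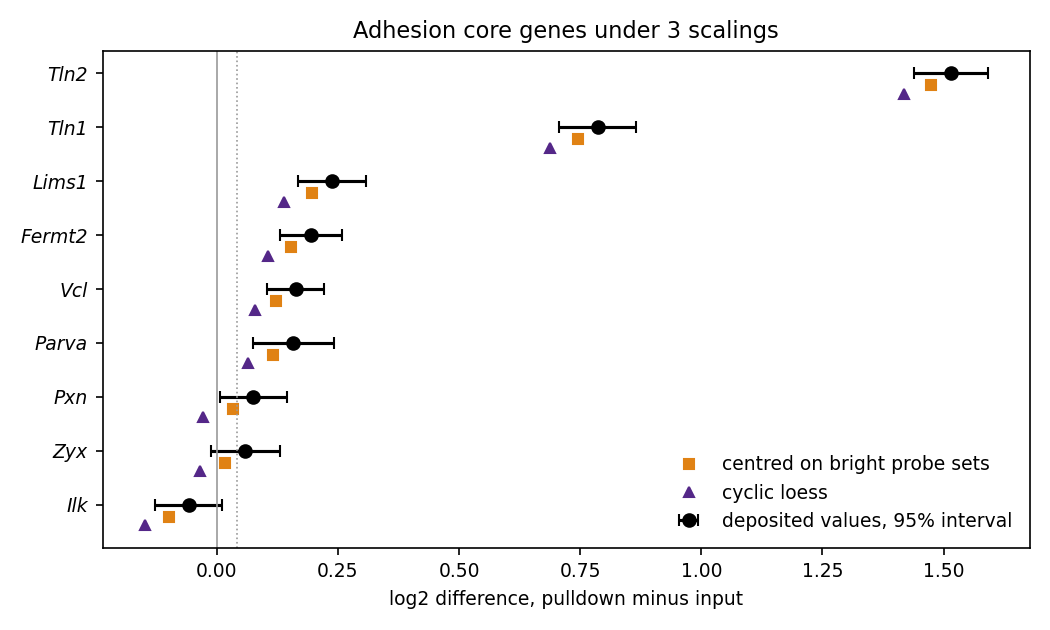
Log2 difference, pulldown minus input (horizontal axis), of the 9 measured core genes from the deposited values with 95% confidence intervals (black), after centring on bright probe sets (orange squares) and after cyclic loess (purple triangles). The dotted line is the median of all genes (0.04). The talins stay far to the right under each scaling, whereas Pxn and Zyx change sides after cyclic loess.

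Tln2, but not Tln1, lay outside the range of the wider adhesion machinery. Of 70 other intracellular adhesion genes, 66 had a probe set with a single gene symbol. Of these, 44 (66.7%) were higher, 7 (10.6%) lower and 15 not past the test. Over all genes 31.3% were higher and 17.3% lower, and over genes above the median level 45.6% and 27.3%. Of the 59 other adhesion genes above that level, 72.9% were higher and 11.9% lower. Coding genes above it with a genomic span of 30 to 100 kb were higher in 64.5% and lower in 13.9% of cases. For those over 100 kb the shares were 74.9% and 8.03%. Over the 66 genes difference and span had a Spearman correlation of 0.38, and whether span bears on their calls was not tested. The 66 differences had a median of 0.29 and a range of -0.94 to 0.89. Tln2 lay above this whole range, and Tln1 above all but the 3 highest genes. These were Dock1, the Rac activator recruited by p130Cas and Crk, at 0.89 ± 0.031, Arhgap35, a GTPase-activating protein, at 0.85 ± 0.037, and Rapgef1, an activator of Rap1, at 0.83 ± 0.034 (limma adjusted p of 4.89e-07, 1.19e-06 and 8.88e-07). Asap2, an Arf GTPase-activating protein that binds FAK-family kinases, followed at 0.74 ± 0.083.

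The 4 lowest of the 66 genes were Itgb1bp1, Sharpin, Rsu1 and Fhl2. Itgb1bp1, which encodes ICAP1, an inhibitor that binds the integrin beta 1 tail, fell to 7.96 ± 0.051 in the pulldown, against 8.91 ± 0.030 in the input, a log2 difference of -0.94 (limma adjusted p = 6.7e-07). Sharpin, which also restrains integrin activation, stood at -0.52 ± 0.037, and the LIM protein Fhl2 at -0.27 ± 0.047. Filamin A, Flna, an actin crosslinker that competes with talin for integrin tails, was higher, at 0.38 ± 0.029 (limma adjusted p = 1.74e-05). After cyclic loess 40 of the 66 were higher and 12 lower, beside 25.7% and 22.9% of all genes. None of the 66 genes called on the deposited values changed sign.

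Each core gene was matched to the other adhesion gene at the smallest root mean square distance over the 6 arrays, after centring each gene on its input mean. With only pulldown and input arrays, this distance reflects the gap between the differences of the genes and the spread among replicates. A close match therefore restates that the differences were similar. Whether matched genes share more than that was not tested. Vcl and Parva were both nearest to Actn4, the podocyte alpha-actinin (0.19 ± 0.026; distances 0.021 and 0.036), and Lims1 to Actn1 (0.25 ± 0.026; distance 0.025). Fermt2 was nearest to the LIM protein gene Csrp1 (0.19), Zyx to its partner Vasp (0.04, limma adjusted p = 0.338), Pxn to Wtip and Ilk to Rap1b (-0.02). Tln1 was nearest to Rapgef1, at a distance of 0.041. Tln2 had no close match, since its difference exceeded that of every other adhesion gene, and its nearest gene, Dock1, lay at a distance of 0.443.

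**Figure D4:**
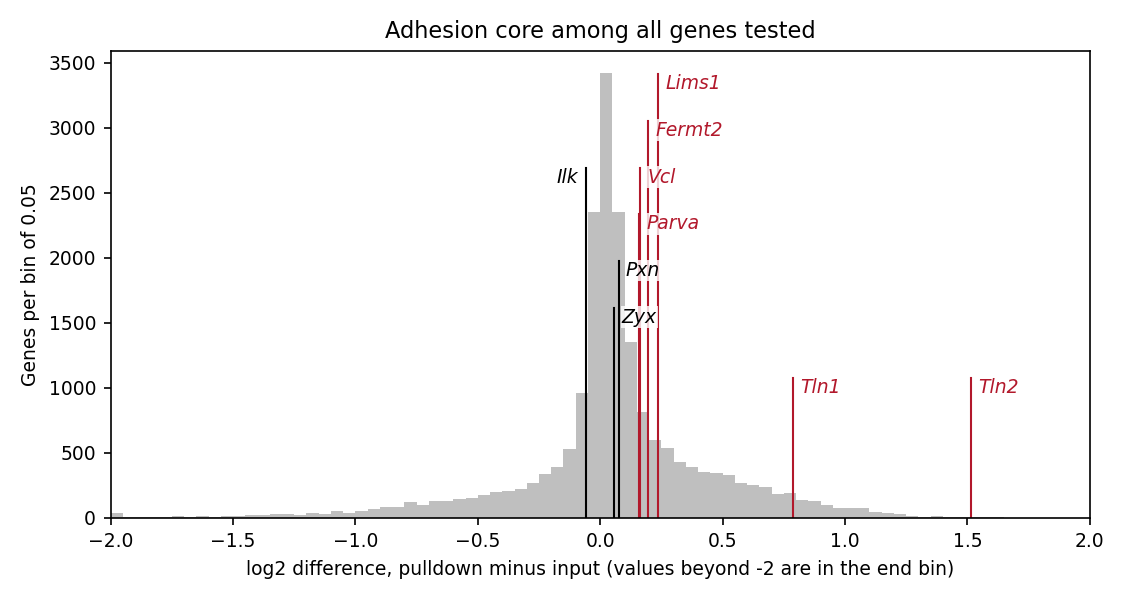
Number of genes per bin of 0.05 (vertical axis) by log2 difference, pulldown minus input (horizontal axis), for all 19938 genes, with the 9 core genes as lines whose heights carry no value. Red marks genes called higher, black those that did not pass. Tln2 lies in the far right tail and Ilk, Zyx and Pxn in the central peak.

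Differences across the array followed gene size, so the core was also read against genes of similar genomic span, a coarse measure that includes introns. Among 11525 coding genes above the median level the rank correlation of difference and span was 0.48 (Spearman, across genes, which are not independent), and over the 9 core genes it was 0.60, given as a description. Coding genes spanning over 100 kb had a median difference of 0.42, those of 30 to 100 kb 0.27, those of 10 to 30 kb 0.04 and those under 10 kb -0.12. Tln2, at 417 kb, exceeded 99.4% of its class and Tln1, at 31.1 kb, exceeded 89.5% of its own.

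The remaining long genes of the core stood below the middle of their classes. Parva (164 kb), Vcl (104 kb) and Lims1 (101 kb) exceeded 28.6%, 29.0% and 35.3% of genes over 100 kb, and Fermt2 (71.5 kb) and Pxn (64.0 kb) 43.1% and 30.5% of genes of 30 to 100 kb. Zyx (10.7 kb) and Ilk (6.34 kb), the shortest of the 9, exceeded 52.2% and 55.4% of theirs. Ilk, with a negative difference, was thus above its class median of -0.12, and Lims1, called higher, was below its class median of 0.42. Rsu1, at 194 kb, was called lower although 74.9% of coding genes over 100 kb and above the median level were called higher and 8.03% lower.

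**Figure D5:**
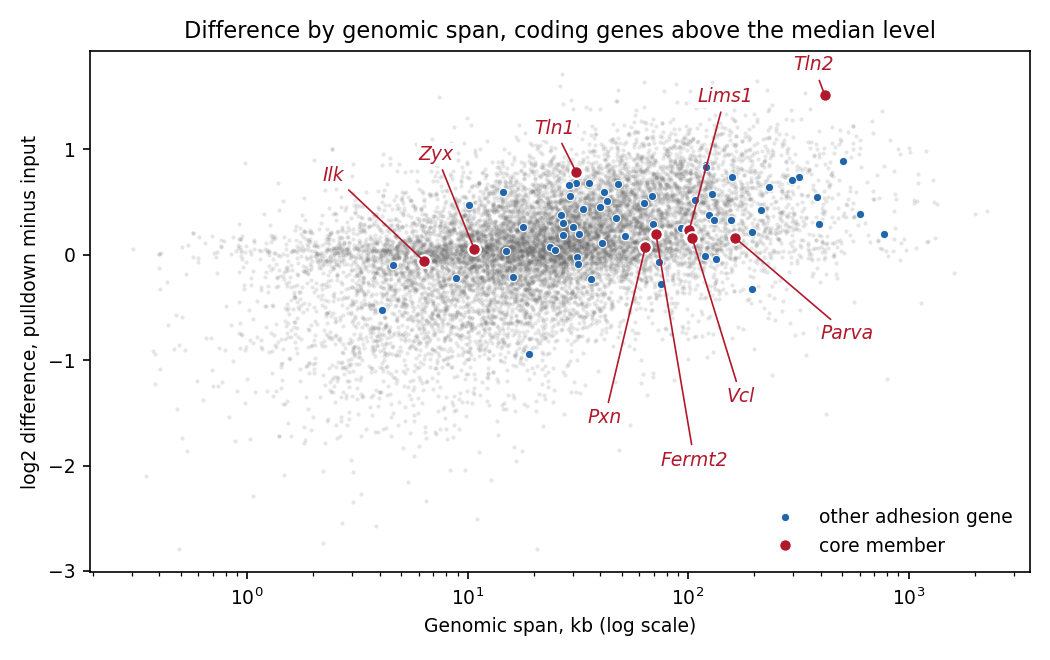
Log2 difference, pulldown minus input (vertical axis), against genomic span in kb (horizontal axis, log scale) for coding genes above the median level (grey, darker where more genes lie), the other adhesion genes above that level (blue) and the core genes (red). Tln2 and Tln1 lie high among genes of their span, and Vcl, Parva, Lims1, Fermt2 and Pxn below the middle.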

How the data were processed

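The deposited values are log2 expression levels of probe sets, with a column for each array. The submitters' processing notes name RMA and limma; their versions are not given in the sources used here. As usually run, RMA includes quantile normalization, and each value is then relative to the rest of its array. Of 35556 probe sets, 21789 have 1 symbol in the platform's annotation. For each gene the probe set with the highest mean of the 6 arrays was used. Genomic spans came from the reference gene table (GRCm38.p6). No coordinates are given, since the files name no build.

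Pulldown was compared with input by limma 3.58.1 in R 4.3.3 (no covariates, 2-sided), over all 19938 genes. Single pairs were compared by exact permutation tests, which cannot go below p = 0.10. Folds are 2 to the power of the log2 difference. Precision is limited by the number of arrays (median SE 0.039). The test was checked on simulated data in which 200 genes were moved and no scaling step was run. Far more genes were called in these data, and the check says nothing about the choice of scaling. The members and lists were chosen with earlier results of these data known. All members were named, and of the other adhesion genes the direct relatives of members, the 4 largest differences in each direction and the nearest gene to each member. The pairs within the integrin-linked kinase complex, the span classes and the further genes named were added after the values were seen. Figures were drawn with matplotlib 3.10.9.

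The alternatives were 2 other scalings (centring on probe sets above the 75th percentile of level, and cyclic loess), a replicate block, variances that follow intensity, leaving out dim genes, weighting arrays, averaging a gene's probe sets and leaving out each array. Deviations of same-numbered arrays from their group means correlated at 0.02, 0.11 and -0.06. Replicate numbers were therefore not treated as pairs.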

Additional observations from a re-analysis of the deposited data

How the results depend on the processing

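Tln2, Tln1, Lims1, Fermt2 and Vcl kept their direction and their call under all 13 alternatives run for each gene. Their ranges were 1.42 to 1.53, 0.69 to 0.81, 0.14 to 0.25, 0.11 to 0.20 and 0.08 to 0.17. The replicate block, the intensity trend, leaving out dim genes and averaging probe sets could not change these differences, only their tests. Each core gene has 1 probe set and lies above the median level. Parva lost its call after cyclic loess only. Pxn was called higher with an intensity trend in the variances (limma adjusted p = 0.0483), and after cyclic loess Pxn and Zyx reversed to -0.028 and -0.035. Of the 9 genes, 1 was lower after centring on bright probe sets and 1 after cyclic loess, Ilk in either case, against 0 on the deposited values. After cyclic loess 12 of the other adhesion genes were lower, against 7, and 22.9% of all genes were lower, against 17.3%. The cause of these shifts was not tested. With a replicate block, 6 core genes were higher and 0 lower, so the block changed no core call. It called 45 other adhesion genes higher, and 6247 of all 19938 genes. Leaving out each array gave 6 core genes higher, and 42 to 45 other adhesion genes higher and 7 to 8 lower. Over all 19938 genes it gave 5654 to 5931 higher and 3193 to 3357 lower. The shift of Tln2 over Tln1 was then 0.72 to 0.75. For genes below the median of all probe sets, such as Fermt1, Fermt3, Parvb and Parvg, signal over background limits what can be read.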

Other observations

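The switch that feeds talin was also measured. Rap1 recruits talin to the membrane, and the mRNAs of Rap1a and Rap1b did not pass the test on the deposited values (-0.07 and -0.02, limma adjusted p = 0.333 and 0.512), nor did that of the Rap1 effector RIAM, Apbb1ip (-0.01). After cyclic loess both Rap1 genes were called lower, at -0.18 and -0.12. The Rap1 activator Rapgef1 and the effectors Krit1 (0.59 ± 0.049) and Rassf5, which encodes RAPL (0.55 ± 0.044), rose. Of the other adhesion genes above the median level in the input, 72.9% were called higher and 11.9% lower. The shares of all genes above that level were 45.6% and 27.3%. Of coding genes above it, 64.5% of those spanning 30 to 100 kb and 74.9% of those over 100 kb were called higher. KRIT1 binds the integrin inhibitor ICAP1, whose mRNA, Itgb1bp1, fell in the same pulldown. The genes of this paragraph were picked after their values were seen, and no relation between them was tested.

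Several signalling partners of paxillin were called higher. Among genes above the median level in the input, 72.9% of the other adhesion genes and 45.6% of all genes were called higher. Of coding genes above that level, 64.5% of those spanning 30 to 100 kb and 74.9% of those over 100 kb were called higher. The kinase Src rose by 0.68 ± 0.033 and Fyn by 0.22 ± 0.035, the scaffold p130Cas, Bcar1, by 0.44 ± 0.027, and the adaptors Crkl and Crk by 0.68 ± 0.027 and 0.56 ± 0.038. The paxillin partners Git1, Git2 and Arhgef7 rose by 0.59, 0.35 and 0.52. Pxn itself, at 0.07, lay below each of them, its relative Tgfb1i1 fell, and Lpxn (0.00) and Ilk (-0.06) did not pass. These genes were picked from the list after their values were seen, and the differences between them and Pxn were not tested.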
